A study of Mus musculus with 9 samples.

Results

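Endoplasmic reticulum (ER) chaperones are described here as the 10 genes Hspa5, Hsp90b1, Dnajb9, Dnajc3, Sdf2l1, Pdia3, Pdia4, Pdia6, Calr and Sil1, chosen by name. The choice was made with earlier results of these data known. All 10 had a row among the 43629 genes of the count table, and all 10 had enough counts to be tested with the 11002 genes that passed the count filter. They were measured in an Eµ-Myc lymphoma, clone 4242, a mouse B-cell tumour line in which the immunoglobulin heavy chain enhancer drives a Myc transgene. Cells were exposed for 2 h to 1 µM JQ1, to 2.5 µM RG6146 or to DMSO, the solvent, with 3 biological replicates of each. All groups carry the transgene and come from 1 clone, so p-values describe the spread between cultures of that clone. JQ1 and RG6146 inhibit the bromodomains of the BET proteins, which bind acetylated histones and help RNA polymerase II to elongate.

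The ER lumen is where secreted and membrane proteins fold. Its Hsp70, BiP, is made from Hspa5 and binds unfolded chains in a cycle set by ATP: J-domain cofactors such as those of Dnajb9 and Dnajc3 speed ATP hydrolysis, and the nucleotide exchange factor made from Sil1 takes ADP out so that the chain is let go. Loss of SIL1 causes Marinesco-Sjögren syndrome in humans. GRP94 (Hsp90b1) is the Hsp90 of the ER, calreticulin (Calr) holds glycoproteins by their sugars, and protein disulfide isomerases (Pdia3, Pdia4, Pdia6) form and reshuffle disulfide bonds. B cells depend on this machinery to fold immunoglobulin. When unfolded proteins build up, the unfolded protein response raises many of these genes, in part through ER stress response elements (ERSE) in their promoters.

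Promoter sequences were taken from RefSeq, build GRCm38.p6, as windows of 250 bases before to 50 bases after each annotated start, and 9 of the 10 genes matched by symbol. An ERSE, here CCAAT, 9 bases of any kind and CCACG, read on both strands, was found in 5 of the 9 windows. It was found in 39 of all 32851 RefSeq windows, or 0.119%. The 5 stretches below are shown because they carry it. They run 5′ to 3′ on the strand of the gene, and capitals mark the outer parts of each ERSE, which read CGTGG and ATTGG where the element lies on the opposite strand.
Hspa5, chr2:34771870-34772089 (+): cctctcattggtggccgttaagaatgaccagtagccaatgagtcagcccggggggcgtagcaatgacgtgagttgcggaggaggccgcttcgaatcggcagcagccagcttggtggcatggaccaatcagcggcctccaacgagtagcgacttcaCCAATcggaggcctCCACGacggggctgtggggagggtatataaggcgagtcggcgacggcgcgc
Dnajc3, chr14:118937712-118937931 (+): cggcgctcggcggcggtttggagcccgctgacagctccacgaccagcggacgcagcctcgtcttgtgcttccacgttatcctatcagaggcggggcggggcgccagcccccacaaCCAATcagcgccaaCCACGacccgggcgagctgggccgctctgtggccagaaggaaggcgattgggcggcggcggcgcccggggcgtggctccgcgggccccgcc
Hsp90b1, chr10:86705445-86705664 (-): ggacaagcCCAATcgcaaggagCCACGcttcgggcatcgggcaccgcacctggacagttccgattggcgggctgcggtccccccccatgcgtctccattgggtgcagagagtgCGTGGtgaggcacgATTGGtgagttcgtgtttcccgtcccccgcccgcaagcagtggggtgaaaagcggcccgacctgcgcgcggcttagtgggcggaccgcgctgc
Calr, chr8:84846932-84847151 (-): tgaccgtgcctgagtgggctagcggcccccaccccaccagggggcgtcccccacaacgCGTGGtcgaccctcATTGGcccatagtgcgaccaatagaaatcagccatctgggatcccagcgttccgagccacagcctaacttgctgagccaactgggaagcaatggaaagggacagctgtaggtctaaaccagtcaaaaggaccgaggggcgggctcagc
Pdia6, chr12:17266369-17266588 (+): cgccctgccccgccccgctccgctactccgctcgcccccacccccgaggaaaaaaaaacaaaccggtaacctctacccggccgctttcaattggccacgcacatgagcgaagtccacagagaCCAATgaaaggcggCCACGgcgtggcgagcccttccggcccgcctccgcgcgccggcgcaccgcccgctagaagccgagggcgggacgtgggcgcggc

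The ERSE of Hspa5 lay at −65 to −47 from the RefSeq start, that of Pdia6 at −98 to −80 and that of Dnajc3 at −105 to −87. Hsp90b1 held 2, at −212 to −194 and, on the opposite strand, at −107 to −89. The element of Calr, also on the opposite strand, lay at −162 to −144. The windows of Dnajb9, Sdf2l1, Pdia3 and Pdia4 held no match to these letters. The second form of the element, ATTGG, 1 base of any kind and CCACG, was found in 0 of the 9 windows and in 12 of all windows. TGACGTG, the core of the unfolded protein response element, was in 1 of 9, that of Hspa5, and in 2.01% of all windows. The E-box CACGTG, the letters that MYC binds best, was in 2 of 9, those of Calr and Dnajb9, and in 7.15% of all windows. Motifs could share bases. A match is a description of letters, and binding was not measured.

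**Figure D1:**
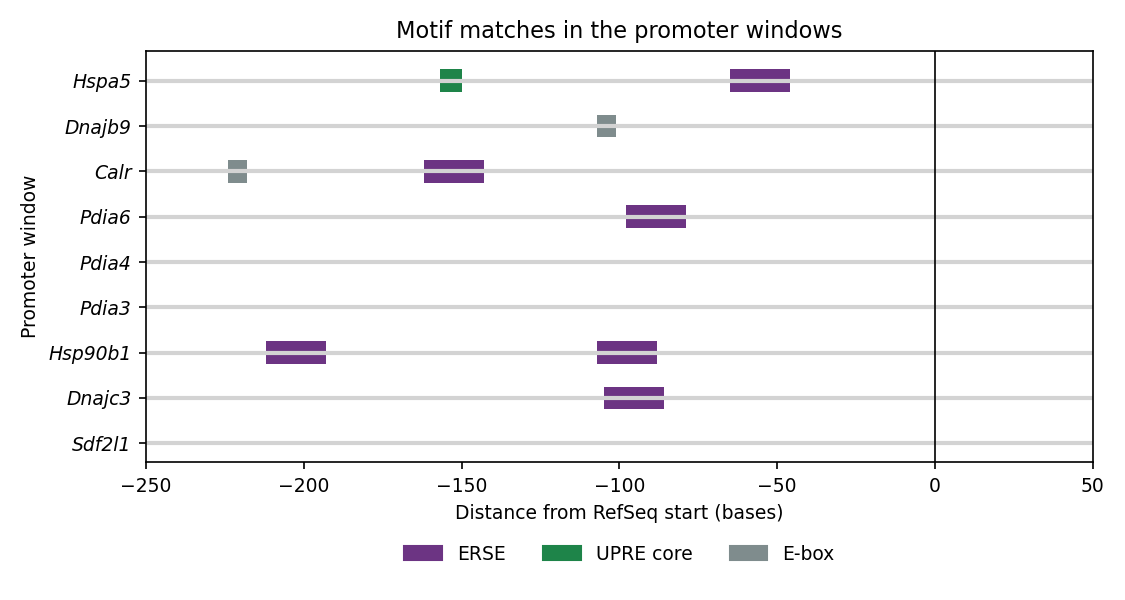
Position of motif matches in the 9 promoter windows, with distance from the RefSeq start in bases on the horizontal axis and 1 line per gene. ERSE matches (purple) are in the windows of Hspa5, Calr, Pdia6, Hsp90b1 and Dnajc3, the UPRE core (green) in that of Hspa5 and the E-box (grey) in those of Dnajb9 and Calr.

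The libraries held 3964732 to 5031717 gene counts after JQ1, 3947240 to 4609612 after RG6146 and 3410161 to 5003725 with DMSO. They were made from the 3′ ends of mRNA, with about 1 fragment per transcript, so counts are not divided by gene length. No molecular identifiers are described, so a count is a read and not a molecule. Levels are compared between samples and not between genes. Levels are given in CPM, counts scaled to the library total, with TMM factors applied for single genes and without them for sums over lists. All 9 B-cell markers tested had counts, and their summed level was 453 to 473 CPM after JQ1 and 465 to 523 CPM after RG6146, against 889 to 961 CPM with DMSO. Each compound lowered 6 of the 9. Of 8 plasma cell markers 4 could be tested, and their list summed to 423 to 465 CPM after JQ1, 390 to 465 CPM after RG6146 and 549 to 583 CPM with DMSO. Of these 4, 2 passed as lower after JQ1 and 1 after RG6146. Prdm1, which defines plasma cells, had too few counts, as did Jchain, Tnfrsf17 and Derl3. Mzb1 held most of the sum, with TMM-scaled means of 399.6 CPM after JQ1, 371.5 CPM after RG6146 and 427 CPM with DMSO. Irf4 averaged 42.6 CPM after JQ1 and 41.3 CPM after RG6146, against 88.7 CPM with DMSO. The myeloid list, led by the granule genes Mpo, Prtn3 and S100a8, summed to 58.0 to 292 CPM after JQ1, 88.6 to 133 CPM after RG6146 and 170 to 787 CPM with DMSO, and was highest in replicate 2 of each group. Of its 10 tested genes 1 passed, Csf1r, as higher with each compound. Its TMM-scaled means were 32.1 CPM after JQ1, 29.8 CPM after RG6146 and 21.4 CPM with DMSO. The granule genes averaged less in treated groups but did not pass. S100a8 had 38.85 CPM after JQ1 and 29.6 CPM after RG6146, against 185 CPM with DMSO. Mpo had 33.8 CPM after JQ1 and 21.9 CPM after RG6146, against 81.2 CPM with DMSO. T and NK cell markers summed to at most 8.24 CPM in treated and 12.6 CPM in DMSO libraries, with Trac at 0 in all 9. Erythroid markers reached at most 19.2 CPM, and the stromal and endothelial list, with Dcn at 0 in all 9, summed to 98.4 to 111 CPM in treated and 132 to 143 CPM in DMSO libraries. Nearly all of this was Vim and Pecam1. In TMM-scaled means Vim had 95.1 CPM after JQ1, 99.9 CPM after RG6146 and 100.5 CPM with DMSO. Pecam1 had 8.14 CPM after JQ1, 8.56 CPM after RG6146 and 27.9 CPM with DMSO. Col1a1, Col1a2, Col3a1, Pdgfrb, Cdh5 and Kdr had at most 3 counts in any library. The part of these cell markers in the results below was not tested. In such bulk samples fewer cells of a type and less RNA per cell cannot be told apart.

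The comparison of each compound with DMSO asks how the chaperone transcripts respond to BET inhibition within 2 h. After JQ1, 5 of the 10 genes passed the test as higher (Sil1, Hspa5, Dnajb9, Calr and Pdia4), none as lower, and 5 did not pass. After RG6146, 6 passed as higher (Sil1, Hspa5, Dnajb9, Calr, Pdia6 and Hsp90b1), none as lower, and 4 did not pass. Passing means an adjusted p below 0.05 over all tested genes in edgeR's quasi-likelihood test. Of all 11002 tested genes 13.6% passed as higher and 15.4% as lower after JQ1, and 12.5% as higher and 13.5% as lower after RG6146. Because the 10 genes were chosen with earlier results of these data known, setting them beside all genes is a description and not a test. The median log2 fold change of the 10 genes was 0.21 after JQ1 and 0.26 after RG6146, beside 0.00 after JQ1 and 0.01 after RG6146 over all tested genes. With library size scaling alone the median of the 10 genes was 0.08 after JQ1 and 0.15 after RG6146, beside −0.13 after JQ1 and −0.10 after RG6146 over all tested genes, and 4 of the 10 passed as higher with each compound. All 3 treated libraries lay above all 3 DMSO libraries for 7 of the 10 genes with each compound, as they did for 20.6% of tested genes after JQ1 and 20.1% after RG6146. Both compounds were set against the same DMSO libraries, so their fold changes share that error. Sil1, Hspa5, Dnajb9 and Calr passed with both compounds. Without replicate 2 of all 3 groups, 4 genes passed after JQ1 and 4 after RG6146, a setting chosen after seeing the data.

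**Figure D2:**
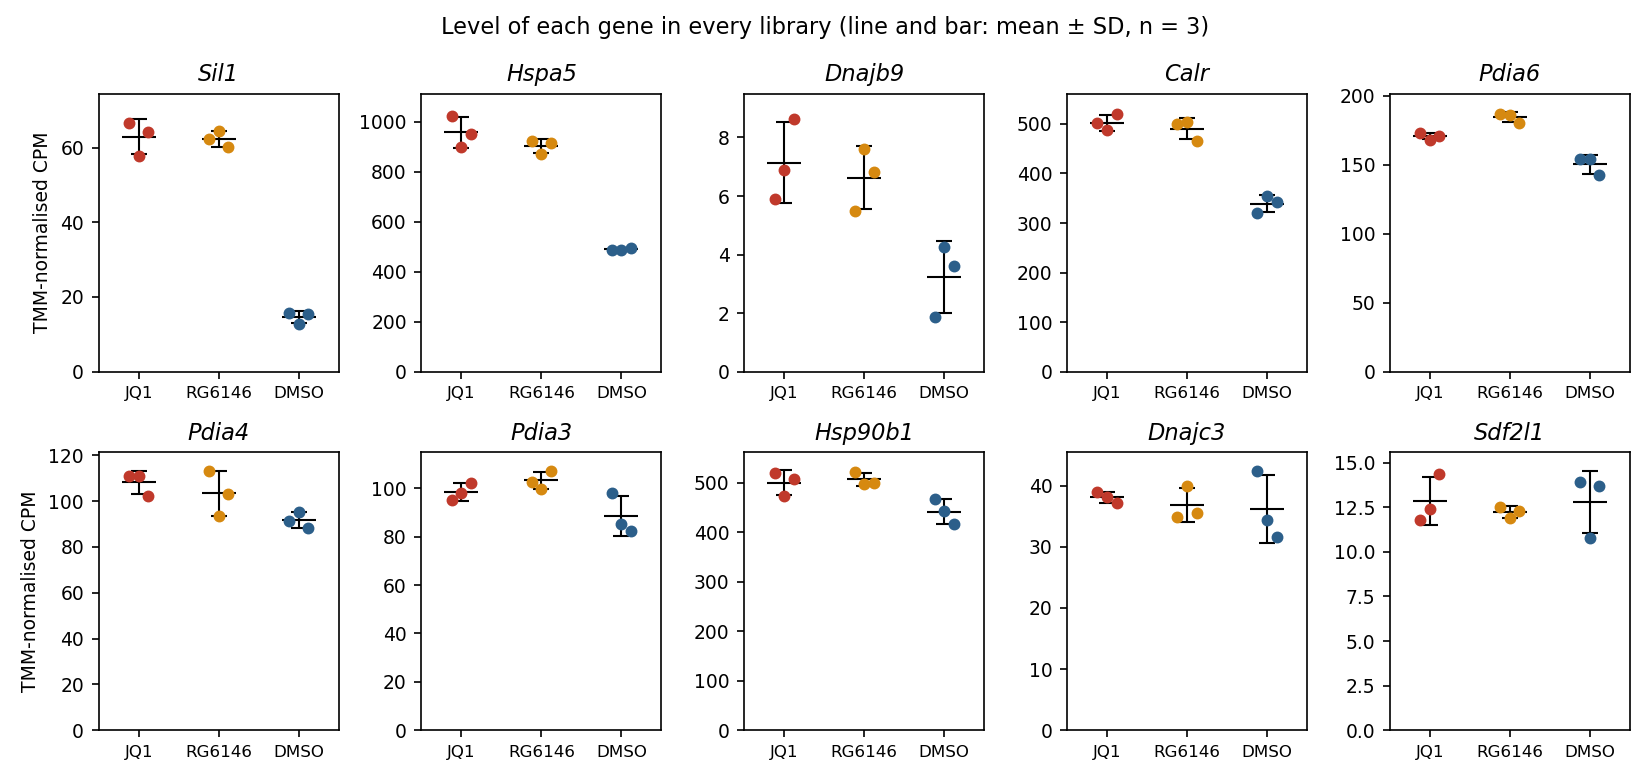
Level of each of the 10 genes in every library, in CPM after TMM normalisation on axes that start at 0, with points for libraries and a line and bar for the mean ± SD (n = 3). Sil1 reaches 57.8 to 66.7 CPM after JQ1 and 60.2 to 64.5 CPM after RG6146, against 12.8 to 15.6 CPM with DMSO, while the points of Dnajc3 and Sdf2l1 overlap.

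Sil1 had the largest fold change of the 10 genes with either compound. This gene (ENSMUSG00000024357), which spans 233385 bp at chr18:35266396-35499780 on the minus strand of mm10, had 66.7, 57.8 and 64.3 CPM after JQ1, 62.3, 64.5 and 60.2 CPM after RG6146, and 15.6, 12.8 and 15.3 CPM with DMSO. The lowest treated library stood far above the highest DMSO library, and the 2 treated groups overlapped. Its log2 fold change was 2.10 ± 0.11 (SE) after JQ1, 4.30-fold, with an adjusted p of 5.1e-10. After RG6146 it was 2.09 ± 0.11, 4.25-fold, with an adjusted p of 5.3e-10. Ordered by log2 fold change from the highest, Sil1 stood at place 52 of 11002 genes after JQ1 and at place 55 after RG6146. It passed under each of the 21 alternatives tried, where its log2 fold change ranged over 1.97 to 2.16 after JQ1 and 1.98 to 2.14 after RG6146.

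The nearest tested neighbours of Sil1 on chromosome 18 did not share this size of change. Ctnna1, which encodes the adhesion protein alpha-catenin and lies 11617 bp away, averaged 29.0 ± 4.27 CPM after JQ1, 30.5 ± 2.46 CPM after RG6146 and 23.1 ± 0.974 CPM with DMSO (SD, n = 3 each). Its log2 fold change was 0.34 ± 0.13 after JQ1 (adjusted p = 0.0633) and 0.40 ± 0.13 after RG6146 (adjusted p = 0.0293). The processed pseudogene Gm5239, 36803 bp away on the other side, had a log2 fold change of −0.55 ± 0.74 after each compound, with adjusted p of 0.635 after JQ1 and 0.644 after RG6146. Sil1 itself overlaps AC121874.1, AC147989.1, AC147989.2 and AC147989.3 on the opposite strand, none of which had a row in the count table. AC121874.1 (chr18:35264029-35272456) covers the 3′ end of Sil1, the end that these libraries read. Whether counting used strand is not given in the sources used here, so the Sil1 counts may include antisense reads.

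Hspa5, which encodes BiP, rose nearly as evenly. It (ENSMUSG00000026864, chr2:34771970-34777547, plus strand) had 1024, 899 and 951 CPM after JQ1, 926, 873 and 915 CPM after RG6146, and 489, 487 and 496 CPM with DMSO. The DMSO libraries lay within a few percent of each other and all 6 treated libraries lay above them. The log2 fold change was 0.97 ± 0.07 after JQ1 (1.95-fold, adjusted p = 8.9e-09) and 0.88 ± 0.07 after RG6146 (1.84-fold, adjusted p = 2.6e-08). It passed under all 21 alternatives with both compounds.

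The J-domain cofactors of BiP differed among themselves. Dnajb9, whose ERdj4 protein also holds the stress sensor IRE1 in check, had only 10 to 33 counts per library, or 5.89, 6.90 and 8.63 CPM after JQ1, 5.47, 7.59 and 6.82 CPM after RG6146, and 1.88, 4.27 and 3.60 CPM with DMSO. Each treated library was above each DMSO library, and the lowest value, in DMSO replicate 1, stood well below the other DMSO libraries. The log2 fold change was 1.18 ± 0.31 after JQ1 (adjusted p = 0.00791) and 1.08 ± 0.31 after RG6146 (adjusted p = 0.0159). Without DMSO replicate 1 it was 0.86 after JQ1 (adjusted p = 0.0521) and 0.76 after RG6146 (adjusted p = 0.0915), which no longer passed, and the RG6146 value also did not pass without RG6146 replicate 2 (adjusted p = 0.0604). Without replicate 2 of all 3 groups the adjusted p was 0.0213 after JQ1 and 0.0552 after RG6146. The RG6146 call of Dnajb9 also ended with ERCC scaling and with the DESeq2 Wald test. It held in 15 of 20 alternatives, and the JQ1 call in 19 of 20.

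Dnajc3, which encodes the J-domain protein P58IPK, had 38.9, 38.1 and 37.1 CPM after JQ1, 34.9, 40.0 and 35.4 CPM after RG6146, and 42.3, 34.4 and 31.7 CPM with DMSO. Its groups overlapped fully, with log2 fold changes of 0.07 ± 0.12 (adjusted p = 0.703) after JQ1 and 0.02 ± 0.12 (adjusted p = 0.93) after RG6146. Sdf2l1, whose protein works in a complex with BiP and the J-domain protein of Dnajb11, had 11.8, 12.4 and 14.4 CPM after JQ1, 12.5, 11.9 and 12.3 CPM after RG6146, and 13.9, 10.8 and 13.7 CPM with DMSO. Its log2 fold change was −0.01 ± 0.17 after JQ1 (adjusted p = 0.979) and −0.07 ± 0.17 after RG6146 (adjusted p = 0.797). The sign of these values near 0 turned with the scaling of the libraries: for Dnajc3 with library size alone, and for Sdf2l1 after JQ1 with ERCC spike-ins.

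Calr (ENSMUSG00000003814, chr8:84841850-84846934, minus strand), the calreticulin gene, had 501, 488 and 520 CPM after JQ1, 500.1, 504 and 466 CPM after RG6146, and 319.9, 354 and 343 CPM with DMSO. All treated libraries lay above the DMSO libraries. The log2 fold change was 0.57 ± 0.07 after JQ1 (1.49-fold, adjusted p = 8.1e-06) and 0.53 ± 0.07 after RG6146 (1.45-fold, adjusted p = 1.9e-05). Of 21 alternatives only scaling by ERCC spike-ins ended the call, at a log2 fold change of 0.56 after JQ1 (adjusted p = 0.112) and 0.55 after RG6146 (adjusted p = 0.123), and with ERCC scaling and a replicate block the gene passed with both compounds.

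The disulfide isomerases and GRP94 had log2 fold changes of at most 0.29, and which of them passed depended on the compound and the setting. Pdia6 had 173, 168 and 171 CPM after JQ1, 187, 186 and 180.4 CPM after RG6146, and 154, 154 and 143 CPM with DMSO. Its 3 groups did not overlap, with RG6146 libraries highest and DMSO libraries lowest. The log2 fold change was 0.29 ± 0.07 after RG6146, which passed (adjusted p = 0.00564), and 0.18 ± 0.07 after JQ1, which did not (adjusted p = 0.0665). The RG6146 call ended with scaling by library size alone (adjusted p = 0.0722) and by ERCC spike-ins (adjusted p = 0.485). Pdia4, which encodes ERp72, averaged 108 ± 5.14 CPM after JQ1, 103 ± 9.85 CPM after RG6146 and 91.7 ± 3.40 CPM with DMSO (SD, n = 3 each). It passed after JQ1 at 0.24 ± 0.09 (adjusted p = 0.0483) but in only 6 of 21 alternatives, where adjusted p ranged over 0.0404 to 0.685, and leaving out JQ1 replicate 1 or 2 or any 1 of the DMSO libraries ended the call, with adjusted p of 0.064 to 0.133. After RG6146 it gave 0.17 ± 0.09 (adjusted p = 0.16), with overlapping groups. Pdia3, the partner of calreticulin in glycoprotein folding, averaged 98.5 ± 3.57 CPM after JQ1, 103 ± 3.68 CPM after RG6146 and 88.7 ± 8.37 CPM with DMSO (SD, n = 3 each), and passed with neither compound (adjusted p = 0.213 after JQ1 and 0.0719 after RG6146). Without DMSO replicate 1, the highest of the DMSO libraries, Pdia3 did pass after RG6146 (0.30, adjusted p = 0.021).

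Hsp90b1 had 520.4, 472 and 508 CPM after JQ1, 523, 497 and 501 CPM after RG6146, and 466, 442 and 417 CPM with DMSO. The treated libraries all lay above the DMSO libraries, by a small margin. The log2 fold change was 0.20 ± 0.07 after RG6146, which passed (adjusted p = 0.0436), and 0.18 ± 0.07 after JQ1, which did not (adjusted p = 0.0629). The RG6146 call held in 7 of 21 alternatives, with adjusted p over 0.0273 to 0.671, and ended without any 1 of the RG6146 libraries, without JQ1 replicate 3 and without DMSO replicate 2 or 3 (adjusted p = 0.059 to 0.159). After JQ1 the gene passed without JQ1 replicate 2 (adjusted p = 0.0286) or DMSO replicate 1 (adjusted p = 0.0451). Hsp90b1 overlaps the pseudogene 1810014B01Rik on the opposite strand and Gm15344 and Gm25745 on its own, and whether the authors' counting used strand is not given in the sources used here, so its reads may be shared with them. Gm25745, annotated as a miRNA, had a log2 fold change of 0.29 ± 0.10 after JQ1 (adjusted p = 0.0394) and 0.28 ± 0.10 after RG6146 (adjusted p = 0.0574). Neither Gm15344 nor 1810014B01Rik passed with either compound.

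**Figure D3:**
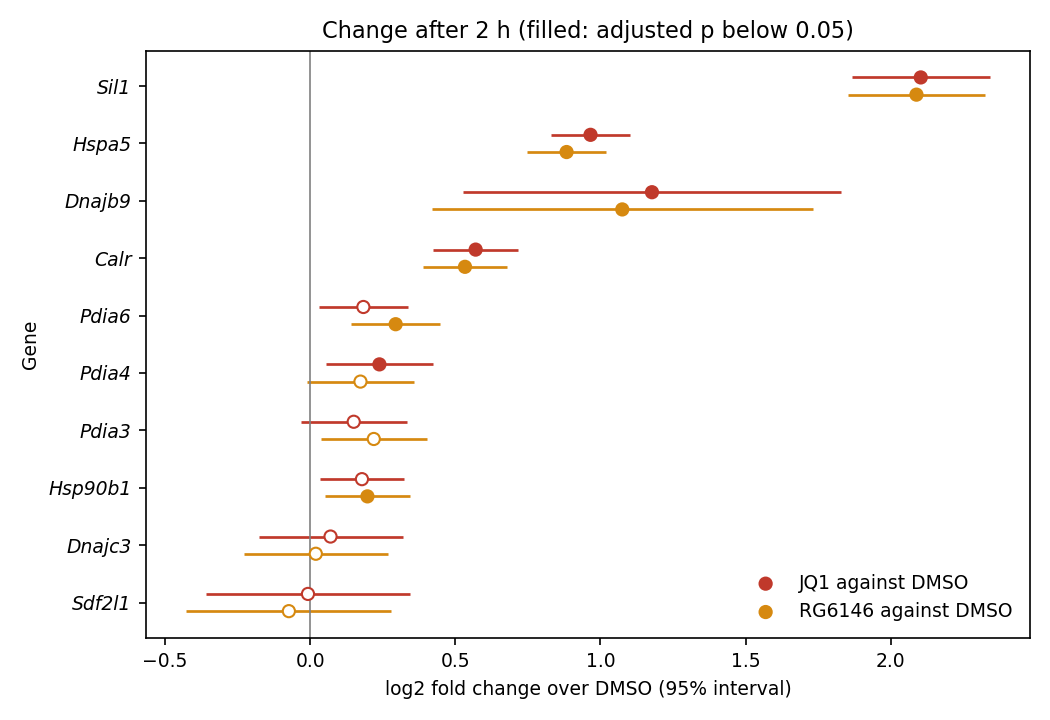
Log2 fold change over DMSO with its 95% interval for the 10 genes, JQ1 in red above RG6146 in orange, with filled points for an adjusted p below 0.05. Sil1 lies near 2.1 with both compounds, Dnajb9 and Hspa5 near 1, Calr near 0.5, and the other 6 genes between −0.07 and 0.29.

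RG6146 was also set against JQ1 directly, at doses that differ (2.5 µM and 1 µM). In edgeR's test 0 of the 10 genes passed, nor did any in DESeq2 or limma-voom, and the smallest unadjusted p among them in edgeR was 0.141, for Pdia6. Of all 11002 tested genes 1 passed, or 0.00909%, with 427 at an unadjusted p below 0.05. DESeq2 called 1 gene as well, and limma-voom 0. The log2 differences of the 10 genes, RG6146 minus JQ1, lay between −0.10 and 0.11. For Sil1 the difference was −0.01, with a 95% interval of −0.23 to 0.20, and for Hspa5 it was −0.08, with an interval of −0.22 to 0.05. The intervals of all 10 lay within 0.69 of 0, the widest being that of the thinly counted Dnajb9. These intervals bound the difference at the doses used and do not show that the compounds act alike. In Pdia6 alone the groups did not overlap, higher in all RG6146 libraries, as in 5.39% of tested genes. Each compound's own fold changes are given side by side above.

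A ratio of 2 genes within a library does not depend on how libraries are scaled. Sil1 had 6.52, 6.43 and 6.76 counts per 100 Hspa5 counts after JQ1, 6.73, 7.39 and 6.58 after RG6146, and 3.19, 2.63 and 3.10 with DMSO. All treated libraries lay above all DMSO libraries, and the exchange factor's transcript thus rose by more than that of BiP with each compound. The mean ratio was 2.21 times as high after JQ1 and 2.32 times after RG6146, with an exact two-sided permutation p of 0.1 for each, the smallest that 3 against 3 libraries can give. Per 100 counts of the 9 chaperone genes together, Sil1 had 2.63 ± 0.0905 counts after JQ1, 2.66 ± 0.116 after RG6146 and 0.882 ± 0.0997 with DMSO (SD, n = 3 each).

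The 9 chaperone genes without Sil1 summed to 2343, 2232 and 2329 CPM of all gene counts after JQ1, 2348, 2316 and 2222 after RG6146, and 1783, 1719 and 1724 with DMSO. The treated sums were 1.32 times as high with each compound, and no treated library overlapped a DMSO library. Most of this came from BiP: Hspa5 made up 39.95% ± 1.14 of these counts after JQ1, 38.5% ± 0.793 after RG6146 and 29.7% ± 0.841 with DMSO (SD, n = 3 each). Without Hspa5 the other 8 summed to 1382 ± 27.5 after JQ1, 1411 ± 54.7 after RG6146 and 1225 ± 34.3 with DMSO (SD, n = 3 each), 1.13 times as high after JQ1 and 1.15 times after RG6146. Each of these sums and shares gave an exact two-sided permutation p of 0.1 with each compound, again the smallest possible. These sums weigh genes by their counts, so Hspa5, Hsp90b1 and Calr dominate them.

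**Figure D4:**
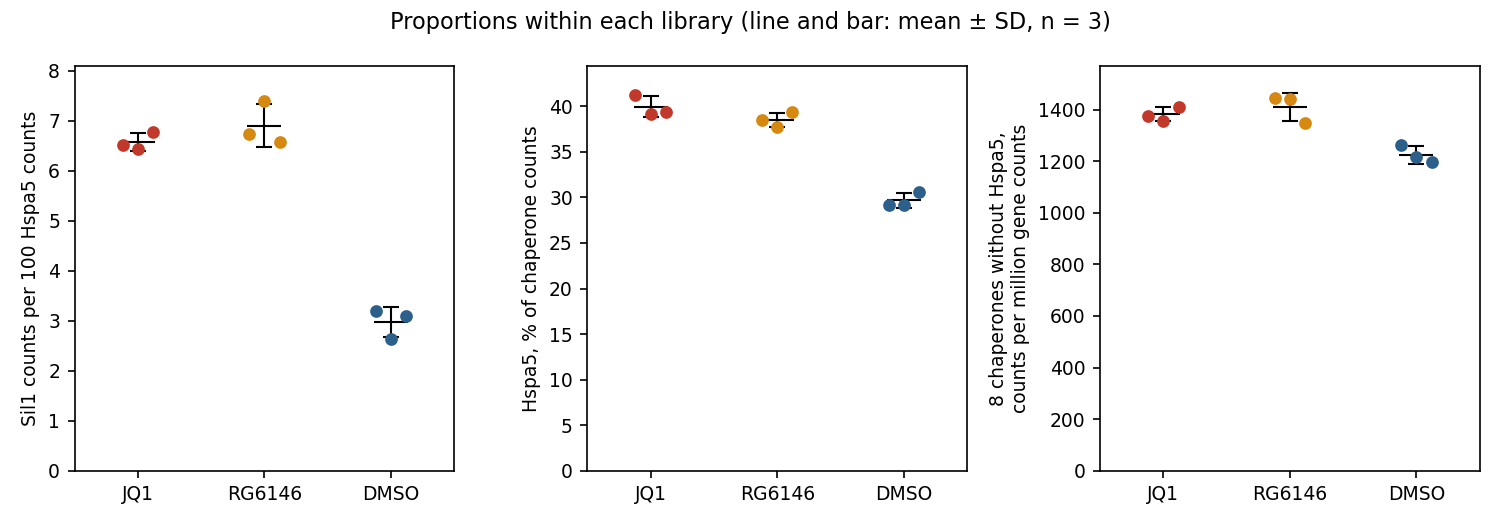
Proportions in each library, with points for libraries and a line and bar for the mean ± SD (n = 3): Sil1 counts per 100 Hspa5 counts, Hspa5 as a percentage of the counts of the 9 chaperone genes, and the summed CPM of the other 8 chaperones. Treated libraries lie above DMSO libraries in all 3 panels, with means of 6.57 (JQ1), 6.90 (RG6146) and 2.97 (DMSO) in the first.

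Lists from the rest of the ER folding machinery are given as counts, to be read beside the shares over all tested genes. These shares were 13.6% higher and 15.4% lower after JQ1, and 12.5% higher and 13.5% lower after RG6146. A list drawn up around the BiP cycle, which also holds canopy family genes, had 13 tested members. Of these, 2 passed as higher and 3 as lower after JQ1, and 3 as higher and 3 as lower after RG6146. The medians were −0.04 after JQ1 and 0.00 after RG6146. Hyou1, whose GRP170 protein is the other nucleotide exchange factor of BiP, averaged 121 CPM after JQ1, 112 CPM after RG6146 and 87.6 CPM with DMSO. It rose by 0.47 ± 0.10 on the log2 scale after JQ1 (adjusted p = 0.00206) and by 0.35 ± 0.10 after RG6146 (adjusted p = 0.0159). Manf, a secreted factor that binds BiP, rose by 0.33 ± 0.10 after JQ1 and 0.41 ± 0.10 after RG6146. The lower genes were the canopy family members Cnpy2, Cnpy3 and Cnpy4, of which Cnpy3, a helper of Toll-like receptor folding, had −0.53 ± 0.17 with each compound and Cnpy4 −0.50 ± 0.16 after JQ1 and −0.52 ± 0.16 after RG6146. Leaving out single libraries ended the call of Cnpy3 and Cnpy4 in several cases, and without replicate 2 of all 3 groups 1 gene of this list passed as higher and 0 as lower after JQ1, with 2 and 2 after RG6146. Dnajb11, a further J-domain cofactor, passed with neither compound.

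Of 15 tested genes for disulfide formation and redox control, 3 passed as higher and 2 as lower with each compound, with medians of −0.07 after JQ1 and −0.09 after RG6146. Without replicate 2 of all 3 groups, 2 passed as higher and 0 as lower with each compound, of 16 tested, and the medians turned to 0.15 after JQ1 and 0.07 after RG6146. Tmx4, a membrane thioredoxin of the ER, averaged 46.5 CPM after JQ1, 43.4 CPM after RG6146 and 17.8 CPM with DMSO, a log2 fold change of 1.39 ± 0.13 after JQ1 (adjusted p = 3.0e-07) and 1.29 ± 0.13 after RG6146 (adjusted p = 8.7e-07). P4hb, the classic protein disulfide isomerase, rose by 0.42 ± 0.08 after JQ1 and 0.38 ± 0.08 after RG6146. Ero1lb, an oxidase that recharges the isomerases, rose by 0.63 ± 0.17 after JQ1 and 0.55 ± 0.17 after RG6146. Erp29, a redox-inactive relative, changed by −0.26 ± 0.07 after JQ1 and −0.27 ± 0.07 after RG6146. In the lectin cycle and among ER prolyl isomerases, 0 of 12 tested genes passed as higher and 1 as lower with each compound. That gene was Mogs, the glucosidase that trims the first sugar from new N-glycans, at −0.29 ± 0.08 after JQ1 and −0.46 ± 0.08 after RG6146. Canx, the membrane-bound counterpart of calreticulin, had 0.14 ± 0.07 (adjusted p = 0.143) after JQ1 and 0.13 ± 0.07 (adjusted p = 0.173) after RG6146. Lman2, Uggt1 and Ganab of the same list passed with neither compound, although Lman2 (0.21 ± 0.09) and Uggt1 (0.20 ± 0.08) had an unadjusted p below 0.05 after JQ1.

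Among 17 tested sensors and transcription factors of the ER and integrated stress responses, 7 passed as higher and 3 as lower after JQ1, and 6 as higher and 1 as lower after RG6146, with medians of 0.21 after JQ1 and 0.19 after RG6146. Atf4, the factor translated when eIF2alpha is phosphorylated, averaged 337 CPM after JQ1, 324 CPM after RG6146 and 204 CPM with DMSO. It rose by 0.72 ± 0.08 after JQ1 (adjusted p = 2.1e-06) and by 0.67 ± 0.08 after RG6146 (adjusted p = 5.5e-06). Ppp1r15a, which directs the phosphatase of eIF2alpha, rose by 1.21 ± 0.19 after JQ1 and 0.89 ± 0.19 after RG6146. Ern1, which encodes IRE1, rose by 1.27 ± 0.23 after JQ1 (adjusted p = 4.1e-04) and 1.25 ± 0.23 after RG6146 (adjusted p = 5.2e-04), at means of 9.84 CPM after JQ1, 9.75 CPM after RG6146 and 4.13 CPM with DMSO. Xbp1, whose mRNA IRE1 splices, did not rise: it fell after JQ1 (−0.48 ± 0.16, adjusted p = 0.0345) and gave −0.30 ± 0.16 after RG6146 (adjusted p = 0.184). Counts at the 3′ end do not separate its spliced form. Mbtps2 passed as lower with both compounds, at −0.75 ± 0.17 after JQ1 (adjusted p = 0.00278) and −0.64 ± 0.17 after RG6146 (adjusted p = 0.00867). Bhlha15, at means of 1.3 CPM after JQ1, 2.67 CPM after RG6146 and 4.23 CPM with DMSO, passed as lower after JQ1 only. Its log2 fold change was −1.73 ± 0.47 after JQ1 (adjusted p = 0.0096) and −0.65 ± 0.41 after RG6146 (adjusted p = 0.271). Atf6 gave 0.21 ± 0.12 (adjusted p = 0.186) after JQ1 and 0.31 ± 0.12 (adjusted p = 0.055) after RG6146, Eif2ak3, which encodes the sensor PERK, −0.16 ± 0.16 after JQ1 (adjusted p = 0.514) and −0.35 ± 0.16 after RG6146 (adjusted p = 0.129), and Ddit3, the CHOP gene, −0.05 ± 0.17 after JQ1 (adjusted p = 0.844) and −0.01 ± 0.17 after RG6146 (adjusted p = 0.98). Nfe2l2, the oxidative stress factor NRF2, rose by 0.68 ± 0.11 after JQ1 and 0.63 ± 0.11 after RG6146. Xbp1, Mbtps2, Bhlha15, Atf6, Eif2ak3, Ddit3, Canx, Dnajb11 and Cnpy2 are given for their roles or to complete a count and were chosen after their values were seen.

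ER-associated degradation, which sends misfolded proteins to the proteasome, had 6 of 31 tested genes higher and 3 lower after JQ1, and 3 higher and 3 lower after RG6146, with medians of 0.11 after JQ1 and 0.01 after RG6146. Edem3, which trims mannose from misfolded glycoproteins, had the largest fall among the genes named from this list, −1.05 ± 0.11 after JQ1 (adjusted p = 1.9e-06) and −0.91 ± 0.11 after RG6146 (adjusted p = 9.5e-06). Herpud1, a stress-induced part of the export complex, fell as well, by 0.32 ± 0.08 on the log2 scale after JQ1 and by 0.37 ± 0.08 after RG6146. Selenos, a membrane anchor of the export ATPase, rose by 0.67 ± 0.08 with each compound, and Vcp, that ATPase, rose by 0.37 ± 0.07 after JQ1 and 0.34 ± 0.07 after RG6146. In translocation and N-glycan transfer, 4 of 35 tested genes passed as higher and 2 as lower after JQ1, and 2 as higher and 2 as lower after RG6146, with a median of 0.05 for each. Srpr, the receptor of the signal recognition particle, fell with both compounds, with −0.64 ± 0.12 after JQ1 and −0.36 ± 0.12 after RG6146, and so did Sec11c of the signal peptidase, with −0.27 ± 0.08 after JQ1 and −0.35 ± 0.08 after RG6146. Dad1, a subunit of the oligosaccharyltransferase, and Srp14, of the signal recognition particle, passed as higher after JQ1 (0.35 ± 0.11 for Dad1 and 0.32 ± 0.10 for Srp14) and not after RG6146 (adjusted p = 0.0624 for Dad1 and 0.103 for Srp14). These calls were fragile: Srpr passed after RG6146 in 12 of 21 alternatives, Dad1 after JQ1 in 13 and Srp14 after JQ1 in 12. Whether the compounds differ in Dad1 and Srp14 is covered by the direct comparison, in which neither passed.

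Among chaperones of the cytosol and mitochondria, 9 of 21 tested genes passed as higher and 1 as lower after JQ1, and 8 as higher and 1 as lower after RG6146, with medians of 0.13 after JQ1 and 0.11 after RG6146. Hspa8, the constitutive Hsp70 of the cytosol, averaged 1470 CPM after JQ1, 1420 CPM after RG6146 and 1110 CPM with DMSO, a log2 fold change of 0.41 ± 0.07 after JQ1 and 0.36 ± 0.07 after RG6146. Dnajb1, its J-domain partner, rose by 0.64 ± 0.10 after JQ1 and 0.41 ± 0.10 after RG6146, and Stip1, which links Hsp70 to Hsp90, by 0.52 ± 0.09 after JQ1 and 0.47 ± 0.09 after RG6146. Bag2, an inhibitor of the Hsp70 ubiquitin ligase CHIP, was the gene that fell, with −0.96 ± 0.12 after JQ1 and −0.98 ± 0.12 after RG6146. The counts of these lists stand beside the shares over all tested genes given above. After JQ1 13.6% passed as higher and 15.4% as lower, and after RG6146 12.5% as higher and 13.5% as lower. A difference between lists was not tested.

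The list counts depend on scaling. With library size alone, the calls over all genes turned to 913 higher and 2444 lower after JQ1, in place of 1495 higher and 1689 lower, and to 879 higher and 2077 lower after RG6146, in place of 1374 higher and 1489 lower. The chaperones of the cytosol and mitochondria then had 4 higher and 3 lower after JQ1 and 3 higher and 2 lower after RG6146, with medians of −0.00 after JQ1 and 0.01 after RG6146, and with ERCC scaling 0 higher and 1 lower with each. Under ERCC scaling the medians of that list stayed at 0.12 after JQ1 and 0.14 after RG6146, and with ERCC scaling and a replicate block 6 passed as higher after JQ1 and 8 after RG6146. The medians of degradation (−0.02 after JQ1 and −0.10 after RG6146) and translocation (−0.09 after JQ1 and −0.06 after RG6146) turned negative with library size alone. With that scaling the median over all tested genes was −0.13 after JQ1 and −0.10 after RG6146. In the main setting it was 0.00 after JQ1 and 0.01 after RG6146. Without replicate 2 of all 3 groups, degradation had 3 higher and 2 lower after JQ1, the stress list 6 higher and 1 lower after JQ1, and the cytosolic and mitochondrial list 5 higher and 1 lower after RG6146.

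**Figure D5:**
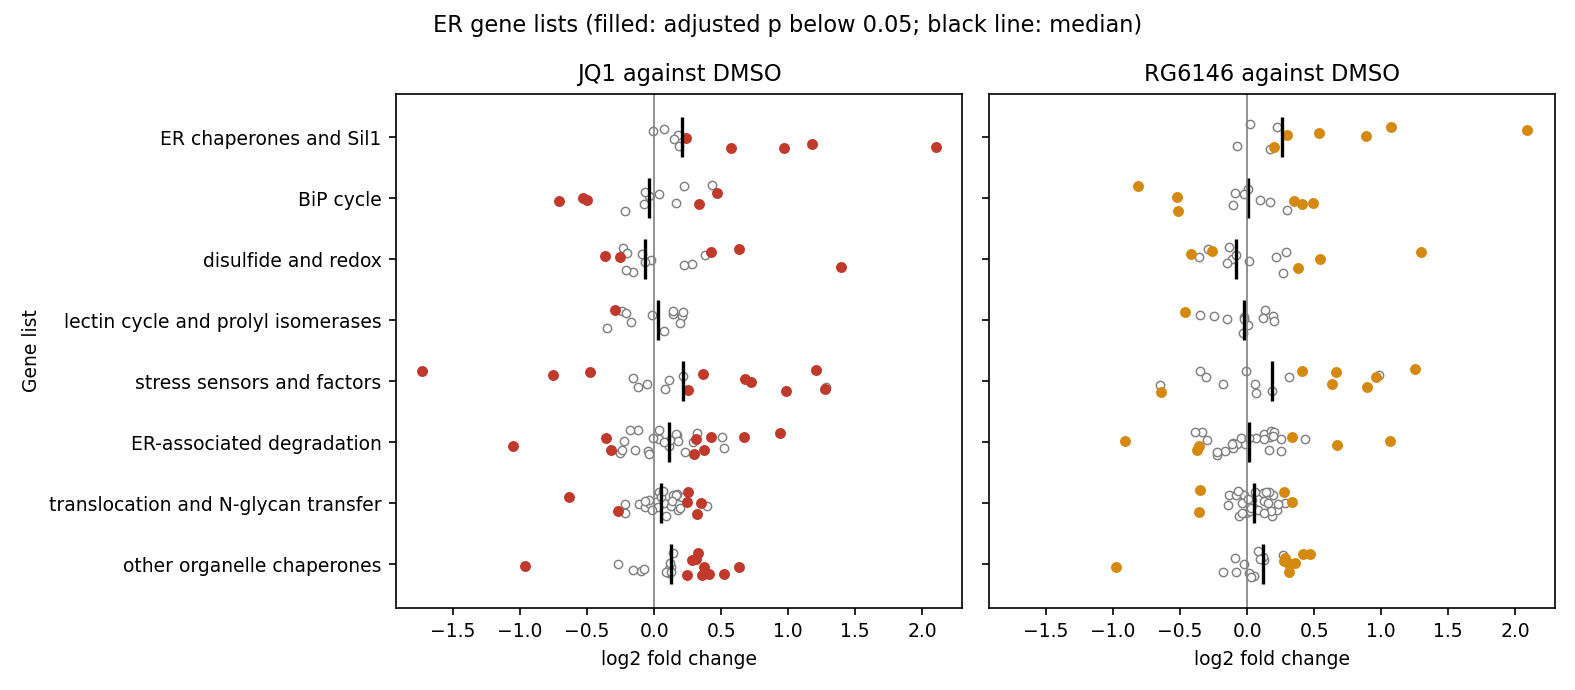
Log2 fold change over DMSO of every tested gene in the 10 chaperones and the 7 other lists, JQ1 on the left and RG6146 on the right, with filled points for an adjusted p below 0.05 and a black line for the list's median. The chaperones and Sil1 have medians of 0.21 and 0.26 in the left and right panels, and Bag2, Edem3 and the canopy genes lie among the filled points below 0.

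The genes whose levels followed Sil1 most closely over the 9 libraries, among 7411 genes averaging 10 CPM or more, were Hexim1 (Pearson r = 0.997), Arid4b (0.997), Bcl2l11 (0.997), Zswim6 (0.996) and Txnrd1 (0.995). Hexim1 encodes an inhibitor of the elongation factor P-TEFb, Bcl2l11 the pro-apoptotic protein BIM, and Txnrd1 a thioredoxin reductase of the cytosol. Their changes differed in size: Bcl2l11 had a log2 fold change of 1.93 after JQ1 and 1.90 after RG6146, Hexim1 1.55 after JQ1 and 1.46 after RG6146, and Txnrd1 0.52 after JQ1 and 0.51 after RG6146. Among the closest to Hspa5 were Gxylt1, Zswim6 and Ppm1b (each 0.995) and Hdlbp (0.994). These correlations describe 9 libraries that fall into treated and DMSO sets, so any gene that separates these sets evenly scores high.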

How the data were processed

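QuantSeq 3′ libraries from 500 ng of RNA were read on a NextSeq 500 as single 75-base reads, per the labels' protocols. The authors deposited raw counts per gene. Per the submitters' processing notes reads were handled with HISAT2 2.1.0, cutadapt 1.7, FastQC 0.11.5, bcl2fastq 2.17.1.14, limma and featureCounts (Subread), on build mm10. Not given in the sources used here are the strand setting, the annotation release and how multiply mapped reads were handled.

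Ensembl identifiers were matched to GENCODE M21, with a symbol for 42462 of 43629. The 92 ERCC rows stayed out of library sizes. In R 4.3.3, edgeR 4.0.16 kept 11002 genes (filterByExpr, minimum count 10), scaled by TMM and fitted 1 robust quasi-likelihood model of group to all 9 libraries, with Benjamini-Hochberg adjustment over all tested genes. Library totals ran over 3410161 to 5031717 counts, which limits precision most for genes with few counts. Fold changes carry standard errors derived from the F statistic and 95% intervals, and levels are TMM-normalised CPM except for sums over lists and within-library proportions, which use all gene counts. Replicates differed beyond sampling noise. The main model did not use replicate numbers, and whether they mark shared batches was not tested. Alternatives used DESeq2 1.42.0, limma 3.58.1, other scalings and filters, a replicate block and left-out libraries. The fit was tested on simulated data. Named genes were the 10 chaperone genes, up to 4 per list with the smallest p after JQ1, the 5 most correlated with Sil1 and with Hspa5 (1 of which is not reported here), and neighbours and overlapping genes. The genes and lists were chosen with earlier results of these data known.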

Additional observations from a re-analysis of the deposited data

How the results depend on the processing

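Sil1 and Hspa5 passed under all 21 alternatives with both compounds. The number of chaperone genes that passed, all higher, was 3 after JQ1 and 2 after RG6146 with ERCC scaling, and 3 after JQ1 when a mean of at least 10 CPM was asked, a filter that leaves Dnajb9 untested. Over all genes 1196 passed after JQ1 and 1082 after RG6146 with ERCC scaling, and 1902 after RG6146 with DESeq2. When a replicate block was added to ERCC scaling, 2829 passed after JQ1 and 2604 after RG6146. The cause of these differences was not tested. Same-numbered libraries of different groups correlated at −0.0627 to 0.103 in their deviations from group means, over 9 pairs. Differently numbered ones correlated at −0.0893 to 0.074, over 18 pairs. The ERCC share of counts, however, fell from replicate 1 to replicate 3 in each group. It went from 1.37% to 0.958% after JQ1, from 1.35% to 0.972% after RG6146 and from 1.51% to 1.13% with DMSO. The myeloid list was highest in replicate 2 of each group. Whether replicate numbers mark shared batches was not tested. With a replicate block 3092 genes passed after JQ1 and 2789 after RG6146, 4 and 6 of them chaperone genes. With ERCC scaling and the replicate block, 4 chaperone genes passed after JQ1 and 5 after RG6146. As log2 ratios of means, Sil1 over the 9 chaperones gave 1.57 for JQ1 and 1.59 for RG6146, and the chaperone share 0.53 for JQ1 and 0.51 for RG6146 when TMM-scaled, and 0.52 for JQ1 and 0.53 for RG6146 per ERCC count.

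Reversed signs were seen only in values that passed no test. For Dnajc3 these were −0.0647 after JQ1 and −0.0893 after RG6146 with library size alone, −0.0135 after RG6146 with the filter at 10 CPM and −0.0785 after RG6146 without replicate 2 of all 3 groups. For Sdf2l1 after JQ1 they were 0.0026 with ERCC scaling and 0.0019 with no count filter. For RG6146 minus JQ1 they were 0.0072 for Calr with ERCC scaling and the replicate block, −0.0117 for Hsp90b1 and 0.0157 for Pdia4 without replicate 2 of all 3 groups, and for Sil1 0.0114 with library size alone, 0.0259 with ERCC scaling and 0.034 with ERCC scaling and the replicate block. With single libraries left out, the ranges that crossed 0 were −0.0168 to 0.206 for Dnajc3 after JQ1, −0.0676 to 0.156 for Dnajc3 after RG6146 and −0.104 to 0.0598 for Sdf2l1 after JQ1. For RG6146 minus JQ1 they were −0.229 to 0.0509 for Dnajb9, −0.0214 to 0.0482 for Hsp90b1, −0.127 to 0.0199 for Sdf2l1 and −0.0734 to 0.0292 for Sil1. Of 2053 values of single genes under alternatives, 165 no longer passed, 6 newly passed and 28 changed sign. Depth limits Dnajb9 most, at 10 to 33 counts per library.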
